A study of Mus musculus with 6 samples.

Results

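The small leucine-rich proteoglycans are secreted matrix proteins, and 10 of their genes were followed here across mouse cardiac fibroblasts kept with or without TGFβ. The 10 were taken by gene symbol from the 25140 genes of the count table: *Dcn*, *Bgn* and *Aspn* (class I), the class I-like *Ecm2*, *Prelp*, *Lum*, *Fmod* and *Omd* (class II), *Ogn* (class III) and *Podn* (class V). They were chosen by the log2 fold changes and calls of these same libraries, with the difference between TGFβ and vehicle already known, so their fold changes are given as a description, with a standard error and no test of their own.

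RNA was sequenced from primary cardiac fibroblasts of adult C57BL/6 mice at passage 1. The cells were grown in DMEM of 25 mM glucose with 10% FBS and, by the labels, held in 1% FBS for 16 h. The methods of the study instead give 24 h at 1% FBS before treatment, kept up during it. The cells then received either TGFβ at 10 ng/ml or vehicle for 24 h, with 3 libraries in each group and no genetic change named for either. The labels and the methods name cardiac fibroblasts, while the text of the study speaks of embryonic fibroblasts in its sequencing experiment. The methods name 3 biological replicates but do not say whether these came from separate animals. The labels do not say so either, so the errors below measure the spread between these libraries.

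Each of these proteins is built from leucine-rich repeats that fold into a curved shape, and many of them bind collagen fibrils and influence how thick the fibrils become. Several carry chains of chondroitin or dermatan sulfate (*Dcn*, *Bgn*) or keratan sulfate (*Lum*, *Fmod*), and some bind growth factors, TGFβ among them. In the heart they are part of the collagenous matrix that fibroblasts lay down in normal tissue and in scars.

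The libraries held 29296570 to 31072338 counts with vehicle and 27851677 to 28894151 counts with TGFβ, and each is named below by its total. Levels are CPM, counts scaled to a common library total after adjusting library sizes by edgeR's trimmed mean method. Of 14334 genes tested, 40.7% passed an adjusted p of 0.05 in edgeR's quasi-likelihood test, 20.5% as higher and 20.1% as lower with TGFβ. All 10 fibroblast markers were detected, and all 6 myofibroblast markers were higher with TGFβ, where their summed level was 13243 to 13626 CPM against 5066 to 5427 CPM with vehicle. Endothelial markers were detected as well, summing to 496 to 774 CPM in vehicle libraries and 449 to 630.3 CPM in TGFβ libraries. Of these 10 markers 0 were called by edgeR, DESeq2 or limma-voom, with 0 at an unadjusted p under 0.05 in each. Their median log2 fold change was -0.30, and their sums varied widely within each group, so the lack of calls does not show equal levels. Of the fibroblast markers 6 were lower, beside 20.1% of all genes tested, among them *Pdgfra* (log2 fold change -1.37), *Tcf21* (-1.05) and *Col3a1* (-0.94). The summed level of pericyte markers was 224 to 255 CPM with vehicle and 116 to 142 CPM with TGFβ. Of 5 tested pericyte markers 1 was lower, *Notch3* (-1.85), and 1 higher, *Cspg4* (1.45), beside 20.1% and 20.5% of all genes tested, with a median of 0.15. *Notch3*, which made up most of the sum with vehicle, went from 207 to 57.3 CPM and *Cspg4* from 19.5 to 53.3 CPM. The lower fibroblast markers and *Notch3* moved the same way as the proteoglycans with lower levels, and their part in those levels was not tested. Of 8 cardiomyocyte markers, *Tnnt2* (46.7 and 34.0 CPM) made up most of the sum and *Myh6* had 2 to 16 counts in a library. In such bulk samples fewer cells of a type and less RNA per cell cannot be told apart.

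With TGFβ, *Prelp* stood at 23.0% of its vehicle level and *Aspn* at 2.74-fold, while *Bgn*, the most abundant of the 10, differed by less than the spread between libraries. *Dcn*, *Fmod*, *Lum*, *Ogn* and *Podn* were lower, and *Omd* and *Ecm2* had estimates below 0 that did not pass the threshold. In all, 7 of the 10 genes passed, 6 as lower and 1 as higher, beside 40.7% of all genes tested. The 2 groups of libraries did not overlap in 8 of the 10, beside 53.3% of all genes tested, with the TGFβ libraries lower in 7 (26.1% of all) and higher in 1 (27.2% of all). The median log2 fold change of the 10 was -0.57, and that of all genes tested was -0.0013. All 10 passed the filter on low counts. Because this contrast took part in choosing the genes, nothing is read from these shares.

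**Figure D1:**
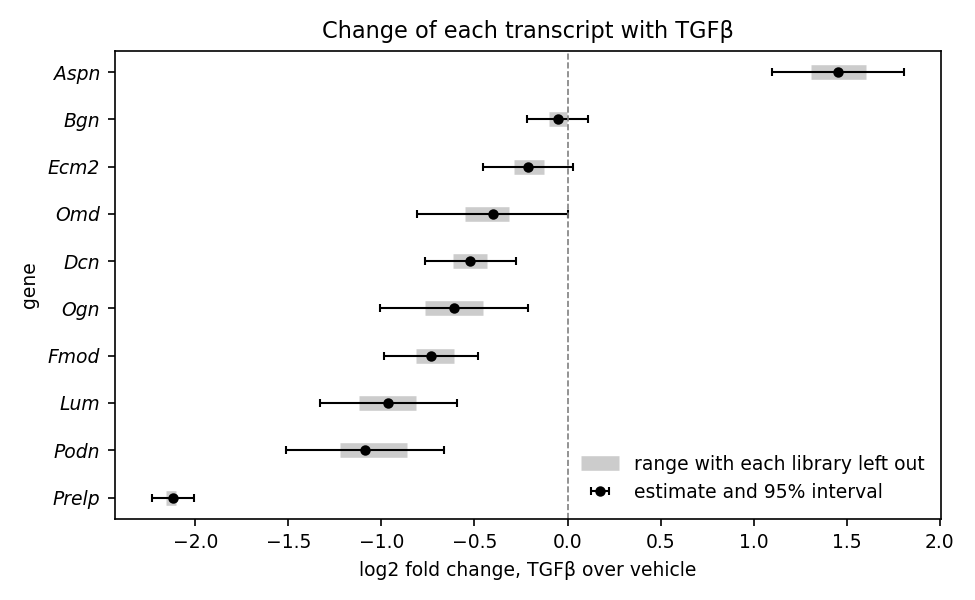
Log2 ratio of the TGFβ to the vehicle level for the 10 genes (x axis, log2 scale), with the 95% interval of the edgeR fit over 3 libraries a group as bars and the range with each library left out as grey boxes. *Prelp* lies farthest to the left at -2.12, *Aspn* is the gene to the right of 0 at 1.45, and the intervals of *Bgn*, *Ecm2* and *Omd* take in 0.

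The stretch of 250 bases before the transcription start is shown for 4 genes that span the range of responses: *Prelp* with the lowest estimate, *Bgn* with an estimate near 0, and *Aspn* and *Ogn*, close neighbours on chromosome 13 with estimates of opposite sign. The sequences are those of RefSeq on GRCm38.p6, written 5′ to 3′ on the gene's own strand. Capitals mark matches, on either strand, to the motifs described after the values. *Prelp* is at chr1:133921402-133921651 on the minus strand, *Bgn* at chrX:73483351-73483600 on the plus strand, *Aspn* at chr13:49544193-49544442 on the plus strand and *Ogn* at chr13:49607765-49608014 on the plus strand.
Prelp: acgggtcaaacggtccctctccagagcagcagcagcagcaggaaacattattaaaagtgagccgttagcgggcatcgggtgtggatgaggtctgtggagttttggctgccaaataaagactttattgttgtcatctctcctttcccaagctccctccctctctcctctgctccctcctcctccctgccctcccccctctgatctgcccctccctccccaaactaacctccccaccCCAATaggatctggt
Bgn: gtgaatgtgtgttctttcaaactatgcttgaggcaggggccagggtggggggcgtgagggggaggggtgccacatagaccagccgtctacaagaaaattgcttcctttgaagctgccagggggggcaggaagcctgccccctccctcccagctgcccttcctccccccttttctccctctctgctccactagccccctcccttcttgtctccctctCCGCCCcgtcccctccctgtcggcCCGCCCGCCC
Aspn: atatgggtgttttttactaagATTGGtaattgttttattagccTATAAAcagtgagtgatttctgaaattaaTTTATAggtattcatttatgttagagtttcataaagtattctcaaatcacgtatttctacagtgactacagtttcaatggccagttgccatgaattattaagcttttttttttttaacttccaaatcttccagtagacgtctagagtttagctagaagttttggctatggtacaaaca
Ogn: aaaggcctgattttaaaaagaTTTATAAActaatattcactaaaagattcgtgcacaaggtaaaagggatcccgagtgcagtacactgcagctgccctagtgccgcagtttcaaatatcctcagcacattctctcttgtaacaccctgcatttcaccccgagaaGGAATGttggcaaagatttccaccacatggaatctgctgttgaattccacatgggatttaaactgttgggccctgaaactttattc

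In class I, *Dcn* (ENSMUSG00000019929, chromosome 10, 97479609 to 97518143, plus strand, GRCm38) encodes decorin, which binds collagen fibrils and TGFβ. Its level was 1469, 1624 and 1852 CPM in the vehicle libraries of 31072338, 29296570 and 29331999 counts, and 1033, 1130.3 and 1280.1 CPM in the TGFβ libraries of 27851677, 28894151 and 28641986 counts, an order kept for every gene below. The highest TGFβ library stayed below the lowest vehicle library. The group means were 1648 ± 192 and 1148 ± 124 CPM (SD, n = 3), a log2 fold change of -0.52 (SE 0.10, 95% interval -0.77 to -0.28).

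*Bgn* (ENSMUSG00000031375, chromosome X, 73483602 to 73495933, plus strand) encodes biglycan, the closest relative of decorin, which in soluble form can engage Toll-like receptors. It gave 6886, 7148 and 7744 CPM in the vehicle libraries and 6681, 6948 and 7353 CPM under TGFβ. The groups overlapped. The log2 fold change was -0.05 (SE 0.07), and its 95% interval of -0.22 to 0.11 corresponds to 0.861-fold to 1.08-fold of the vehicle level.

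*Aspn* (ENSMUSG00000021388, chromosome 13, 49544443 to 49567565, plus strand) encodes asporin, a decorin relative with a run of aspartate residues that binds collagen and TGFβ. With vehicle the libraries held 28.9, 36.8 and 26.3 CPM, and with TGFβ 80.6, 99.8 and 71.3 CPM. Every TGFβ library was far above every vehicle library, and the spread within each group was wide. The log2 fold change was 1.45 (SE 0.15, interval 1.10 to 1.81), a mean of 83.9 ± 14.5 against 30.7 ± 5.45 CPM (SD, n = 3). Of all genes tested, 98.6% had a lower estimate.

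*Ecm2* (ENSMUSG00000043631, chromosome 13, 49504810 to 49532789, plus strand) encodes a matrix protein with leucine-rich repeats that lies next to *Aspn* in the genome. It had 309, 353 and 310 counts with vehicle and 241, 283 and 247 counts with TGFβ. As CPM the groups overlapped (10.7 ± 1.12 and 9.20 ± 0.810, SD, n = 3), and the log2 fold change was -0.21 (SE 0.10, interval -0.45 to 0.03).

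In class II, *Prelp* (ENSMUSG00000041577, chromosome 1, 133910304 to 133921414, minus strand) encodes a proline- and arginine-rich protein that binds collagen and heparan sulfate, linking basement membranes to the matrix beneath. The vehicle libraries held 1279, 1233 and 1258 CPM and the TGFβ libraries 283, 284 and 300.3 CPM. It had the tightest replicates among the 10 with vehicle relative to its level, and the groups were widely apart. The mean fell from 1257 ± 23.1 to 289 ± 9.85 CPM (SD, n = 3), which is 4.35-fold lower, with a log2 fold change of -2.12 (SE 0.05, interval -2.23 to -2.01). Of all genes tested, 0.593% had a lower estimate.

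*Lum* (ENSMUSG00000036446, chromosome 10, 97565128 to 97572703, plus strand) encodes lumican, a keratan sulfate proteoglycan that keeps collagen fibrils thin and evenly spaced in the cornea. It gave 267, 296 and 374 CPM with vehicle and 134, 155 and 193 CPM with TGFβ. The groups were apart, and in each of them the last library named was the highest. The log2 fold change was -0.96 (SE 0.16, interval -1.33 to -0.60).

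*Fmod* (ENSMUSG00000041559, chromosome 1, 134037254 to 134048277, plus strand) encodes fibromodulin, which binds collagen and takes part in its cross-linking. Its libraries stood at 232, 188 and 176 CPM with vehicle and at 130.3, 109 and 119.6 CPM with TGFβ. All 3 TGFβ libraries lay below the vehicle libraries. The log2 fold change was -0.73 (SE 0.11, interval -0.99 to -0.48).

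*Omd* (ENSMUSG00000048368, chromosome 13, 49582462 to 49592822, plus strand) encodes osteomodulin, a keratan sulfate proteoglycan best known from bone. It was scarcely expressed, with 58, 56 and 52 counts with vehicle and 45, 36 and 34 counts with TGFβ. The groups did not overlap, but the log2 fold change of -0.40 (SE 0.17) had an interval of -0.81 to 0.0016. Its counts were the lowest of the 10. Of 7 bone markers, *Runx2* was higher (log2 fold change 0.53, SE 0.07) and *Alpl* lower (-1.35, SE 0.33), and *Sp7*, *Ibsp*, *Bglap*, *Phex* and *Dmp1* were too low to be tested. The part of such cells in the level of *Omd* was not tested.

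*Ogn* (ENSMUSG00000021390, chromosome 13, 49608046 to 49624501, plus strand), of class III, encodes osteoglycin or mimecan, a small keratan sulfate proteoglycan of connective tissue and the vessel wall. Its libraries gave 253, 333 and 252 CPM with vehicle and 189, 221 and 140.3 CPM with TGFβ. The groups did not overlap, though the highest TGFβ library came close to the lowest vehicle library. The log2 fold change was -0.61 (SE 0.17, interval -1.01 to -0.21). Without the vehicle library of 29296570 counts it was -0.46 and without the TGFβ library of 27851677 counts -0.63, and in both cases *Ogn* no longer passed the threshold.

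*Podn* (ENSMUSG00000028600, chromosome 4, 108014791 to 108096445, minus strand), of class V, encodes podocan, a collagen-binding protein described in kidney and in vascular smooth muscle. It had 34.9, 37.5 and 54.8 CPM with vehicle and 17.7, 18.7 and 23.3 CPM with TGFβ. The last library of each group was its highest, and the groups were apart. The log2 fold change was -1.09 (SE 0.18, interval -1.51 to -0.67), and it ranged from -1.22 to -0.86 as each library was left out.

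**Figure D2:**
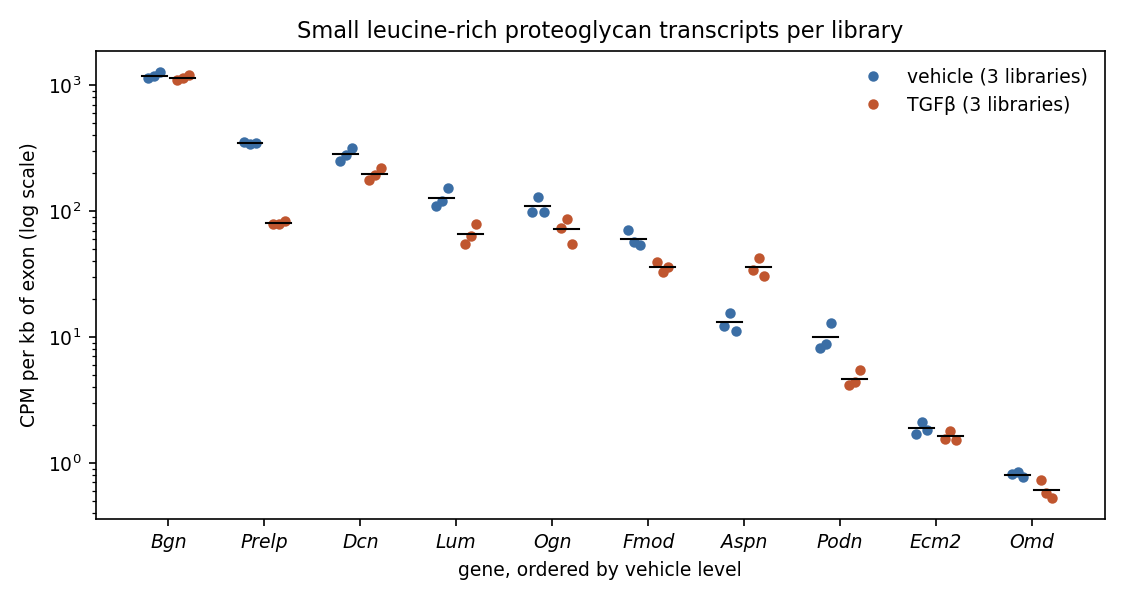
CPM per kb of merged exon (y axis, log scale) of each of the 10 genes, ordered by vehicle level, with 1 point a library and a bar at the mean of the 3 libraries of each group. The means of *Bgn* lie at 1190 and 1147, *Prelp* drops from 348 to 79.9, and *Aspn* is higher in all 3 TGFβ libraries.

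To rank the genes against each other, CPM was divided by the length of their merged exons in kb. With vehicle the order was *Bgn* (1190 ± 72.2 CPM per kb), *Prelp* (348 ± 6.39), *Dcn* (282 ± 33.0), *Lum* (128 ± 22.6), *Ogn* (109 ± 18.2), *Fmod* (60.1 ± 8.89), *Aspn* (13.03 ± 2.32), *Podn* (9.92 ± 2.53), *Ecm2* (1.88 ± 0.198) and *Omd* (0.808 ± 0.032; SD, n = 3 each). The libraries of *Lum* and *Ogn* overlapped, as did those of *Aspn* and *Podn*, and no other neighbours in this order did. With TGFβ the order of levels per kb became *Bgn* (1147 ± 55.5), *Dcn* (197 ± 21.3), *Prelp* (79.9 ± 2.73), *Ogn* (71.4 ± 15.8), *Lum* (65.5 ± 12.2), *Fmod* (36.2 ± 3.27), *Aspn* (35.6 ± 6.16), *Podn* (4.66 ± 0.698), *Ecm2* (1.62 ± 0.143) and *Omd* (0.612 ± 0.106). Here *Prelp* overlapped with *Ogn*, *Ogn* with *Lum*, and *Fmod* with *Aspn*. Among all genes with a length, *Bgn* held rank 12 per kb with vehicle and rank 17 with TGFβ, and *Prelp* moved from rank 67 to rank 510. The place of *Prelp* above *Dcn* depends on the length used, since *Dcn* was the higher of the pair with vehicle when the longest or the protein-coding transcript stood in for the merged exons.

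The summed level of the 10 genes was 2143 ± 116 CPM per kb in vehicle libraries and 1639 ± 78.4 CPM per kb under TGFβ (SD, n = 3), a log2 difference of -0.39 with a pooled SD of 0.07. As a share of all counts they took 1.07% to 1.19% with vehicle and 0.841% to 0.945% with TGFβ. Without *Bgn* the sum was 952 ± 45.0 and 492 ± 25.2 CPM per kb, a log2 difference of -0.95. The make-up of the sum differed between the groups. *Bgn* supplied 55.5 ± 0.459% of it with vehicle and 70.0 ± 0.539% with TGFβ, *Prelp* 16.3 ± 1.03% and 4.88 ± 0.121%, *Dcn* 13.1 ± 0.818% and 11.97 ± 0.734%, and *Aspn* 0.611 ± 0.121% and 2.18 ± 0.407% (SD, n = 3). These shares depend on the gene length used. With the lengths of coding transcripts *Bgn* had 65.0% and 75.2%, *Prelp* 7.55% and 2.08%, and *Dcn* 20.3% and 16.9%, and with the longest transcripts *Bgn* had 72.6% and 82.8%, *Prelp* 9.29% and 2.53%, and *Dcn* 9.35% and 7.71%. The *Bgn* share was higher and the *Prelp* share lower with TGFβ under all 3 lengths. A length scales its gene alike in every library, so the 3 lengths are no separate support for these directions. The level of *Bgn* itself hardly differed, and its share was higher because most of the other genes were lower.

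**Figure D3:**
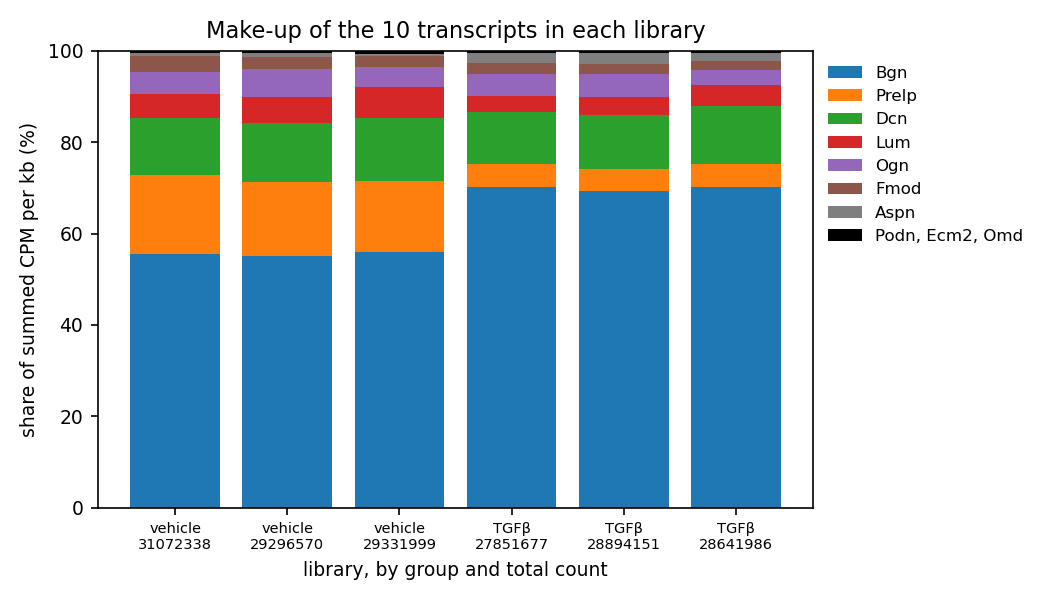
Share of the summed CPM per kb of the 10 genes (y axis, percent) taken by each gene in each of the 6 libraries, as stacked bars. The *Bgn* share is near 55.5% in the vehicle libraries and near 70.0% in the TGFβ libraries, and the *Prelp* share goes from about 16.3% to 4.88%.

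Ratios of counts within a library need no scaling between libraries. For every 100 counts of *Ogn* there were 10.4 to 11.4 counts of its neighbour *Aspn* with vehicle and 42.8 to 50.9 with TGFβ. *Prelp* had 551 to 713 counts for every 100 of *Fmod* with vehicle and 217 to 261 with TGFβ. Neither ratio overlapped between the groups. The pairs were formed with the changes of their genes known, so nothing is read from this. *Dcn* had 21.3 to 23.9 counts for every 100 of *Bgn* with vehicle and 15.5 to 17.4 with TGFβ, and *Lum* had 18.2 to 20.2 for every 100 of *Dcn* against 12.9 to 15.05.

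Within each group, the library in which a gene was highest differed among the 10 genes. How many of all genes tested share these places was not counted, so nothing is read from the sets below. *Dcn*, *Bgn*, *Lum* and *Podn* were all highest in the vehicle library of 29331999 counts and in the TGFβ library of 28641986 counts. *Ogn*, *Aspn* and *Ecm2*, of the chromosome 13 cluster, were highest in the vehicle library of 29296570 counts and in the TGFβ library of 28894151 counts. *Fmod* was highest in the vehicle library of 31072338 counts and in the TGFβ library of 27851677 counts. *Prelp* and *Omd* followed none of these sets: *Prelp* was highest in the vehicle library of 31072338 counts and the TGFβ library of 28641986 counts, and *Omd*, which lies between *Aspn* and *Ogn*, in those of 29296570 and 27851677 counts. The summed endothelial markers were highest in the libraries of the first of these sets, at 496, 565 and 774 CPM in vehicle libraries and 449, 502 and 630.3 CPM under TGFβ. Among them *Tek* was instead highest in the libraries of the second set. The leukocyte sum, made up mostly by *Lyz2*, was also highest in the libraries of the first set, at 255, 269 and 367 CPM and 219, 236 and 327 CPM. Mesothelial markers were highest where *Fmod* was, at 91.8, 25.1 and 35.3 CPM and 48.6, 16.8 and 20.2 CPM. The part of these other cell types in the levels of the proteoglycans was not tested.

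The genes lie mostly in clusters, and 8 of the 10 have another of them nearby (GENCODE M21 on GRCm38). *Ecm2*, *Aspn*, *Omd* and *Ogn* follow each other on the plus strand of chromosome 13 within 119.7 kb, with gaps of 11.7, 14.9 and 15.2 kb. Their log2 fold changes in that order were -0.21, 1.45, -0.40 and -0.61, so the gene with the higher level under TGFβ has estimates below 0 on either side. On chromosome 10 *Dcn* and *Lum* are 47.0 kb apart, both with lower levels (-0.52 and -0.96). On chromosome 1 *Prelp* and *Fmod* are 115.8 kb apart, on opposite strands, again both lower (-2.12 and -0.73). *Optc*, which encodes opticin of the eye, lies 2.30 kb from *Prelp* on the same strand and had a log2 fold change of -1.27 (SE 0.31, edgeR adjusted p = 0.0145) at very few counts.

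**Figure D4:**
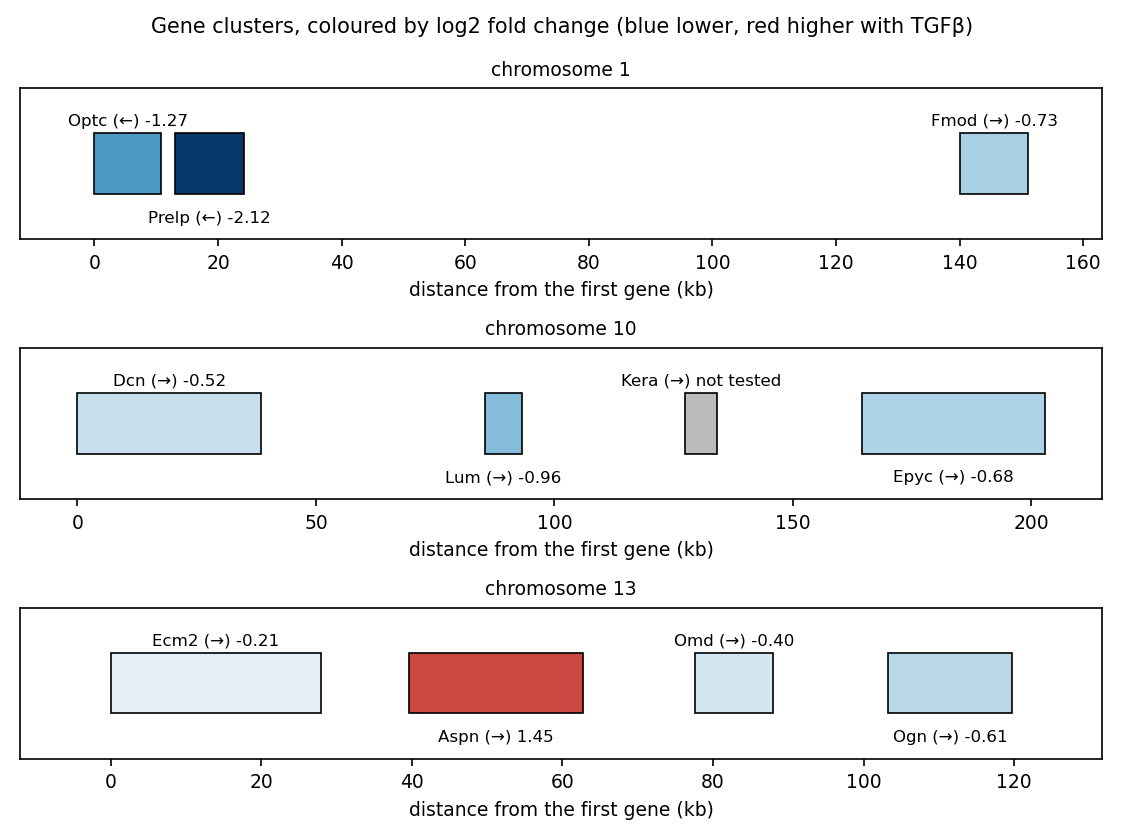
Map of the family genes in the clusters of chromosomes 1, 10 and 13 (x axis, distance from the first gene in kb), each box a gene with an arrow for its strand and its log2 ratio of TGFβ to vehicle, blue below 0 and red above whether or not the gene was called. *Aspn* at 1.45 stands between *Ecm2* at -0.21 and *Omd* at -0.40 on chromosome 13, and *Kera* was not tested.

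The chromosome 13 cluster lies entirely within the span of *Cenpp*, a centromere protein gene on the minus strand. *Cenpp* had 27, 27 and 34 counts with vehicle and 10, 14 and 19 with TGFβ, and its exons share 7 bases with *Aspn* and none with the other 3 genes. Its log2 fold change was -0.91 (SE 0.27, edgeR adjusted p = 0.0287). Its counts come to 1.33% of those of *Aspn*, 0.321% of *Ogn*, 7.52% of *Ecm2* and 46.6% of *Omd*. *Scp2*, on the same strand as *Podn*, overlaps its span without shared exon bases, and its counts come to 315% of those of *Podn*, with a log2 fold change of -0.33 (SE 0.04, edgeR adjusted p = 0.000668). *Gm15851*, an antisense gene, overlaps the exons of *Prelp* by 350 bases and had 8, 4 and 10 counts with vehicle and 0 in each TGFβ library, 0.0158% of the *Prelp* counts. The library kit keeps the strand, but whether the counting used it is not stated. Reads of *Prelp* and *Gm15851*, or of *Aspn* and *Cenpp*, may thus not be told apart where their exons overlap. The other pairs share no exon bases in this annotation, but the annotation used for the counting is not given. Windows of 75 bases along the longest transcript of each gene were sought in the annotated transcripts of other genes, read in the same direction. Of those of *Omd* 2.44% recurred there, and none of those of the others. Neither the opposite strand nor the rest of the genome was searched.

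The nearest tested protein-coding genes outside the 10, on either side of each, were 10 genes, of which 6 passed the threshold, 4 higher and 2 lower, beside 40.7% of all genes tested. Genes that overlap a member are not among them, and of these *Cenpp* and *Scp2* were both called lower. *Optc* and *Epyc*, which are among them, are further genes of the family. *Ippk* and *Nol8*, which flank the chromosome 13 cluster, were higher by 0.37 (SE 0.10) and 0.28 (SE 0.05) on the log2 scale, with edgeR adjusted p of 0.0180 and 0.00315. *Btg2*, an antiproliferative gene next to *Fmod*, was lower, with a log2 fold change of -0.80 (SE 0.18, adjusted p = 0.0103 in edgeR). *Haus7*, before *Bgn* on the X chromosome, was higher by 0.54 (SE 0.07). The median of the 10 neighbours was -0.03.

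The promoters, from 250 bases before to 50 after the start, were listed for 8 of the 10 genes as 9 sequences, *Podn* having a pair of them. Their GC content ranged from 31% for *Aspn*, which is lower than in all but 1.28% of the 32851 promoters listed, to 77.0% for *Podn*, around a median of 52.7% over all promoters. The other genes of the chromosome 13 cluster had 37.7% (*Omd*), 41.0% (*Ecm2*) and 42.3% (*Ogn*), while *Prelp* had 55.3% and *Bgn* 63.7%. Letters were searched on both strands, and overlapping matches count separately. The SMAD-related GTCTAGAC, held by 0.213% of all promoters, was in none of the 9, and the shorter CAGACA, held by 21.04%, was in those of *Prelp* and *Podn*. The AP-1 letters TGANTCA (7.81% of all promoters), the TGFβ inhibitory element (1.0%), CACGTG (7.15%) and the CArG box of serum response factor (1.63%) were in none of them. GGAATG, the core bound by TEAD factors (14.7% of all), was in that of *Ogn*, 86 bases before the start. TATAAA (13.6%) was in those of *Aspn* and *Ogn*, more than 170 bases before the start in each. CCAAT (37.4%) was in those of *Prelp*, 15 bases before the start, *Fmod* and *Aspn*. GGGCGG (35.7%), the GC box, was in those of *Podn*, *Ecm2* and *Bgn*, and CANNTG (72.3%), not marked in capitals, in 7 of the 9. A match of letters says nothing of a factor being bound.

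Of the 8 further genes of the family, 6 could be tested, and 1 was higher and 3 lower, beside 20.5% and 20.1% of all genes tested, with a median log2 fold change of -0.69. *Tsku*, which encodes tsukushi, was the one at an appreciable level, at 68.0 ± 2.82 against 86.6 ± 6.32 CPM under TGFβ (SD, n = 3), a log2 fold change of 0.35 (SE 0.06, edgeR adjusted p = 0.00290). *Nyx*, *Optc* and *Chadl* were lower at log2 fold changes of -1.55, -1.27 and -0.70, and these 3 did not reach a filter of 1 CPM in 3 libraries. *Kera* and *Chad*, known from cornea and cartilage, had at most a handful of counts and were not tested.

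Chains of sulfated sugar are added to several of these proteins after translation. Of the 7 genes for the linker that joins the chain to the protein, 3 were higher and 1 lower, beside 20.5% and 20.1% of all genes tested. *Xylt1*, a xylosyltransferase that begins the linker, was higher by 0.59 (SE 0.08, edgeR adjusted p = 0.00119), at 14.6 and 22.0 CPM. The other listed xylosyltransferase, *Xylt2*, was at 28.7 and 29.3 CPM and had no call (0.03, SE 0.05). *Pxylp1*, a phosphatase acting on the xylose of the linker, was lower with a log2 fold change of -0.70 (SE 0.07). Of 14 tested genes that build chondroitin and dermatan sulfate, 6 were higher and 2 lower, 8 called in all, beside 40.7% of all genes tested. *Chst11*, a chondroitin sulfotransferase, went from 129.9 ± 23.0 to 243 ± 46.9 CPM (SD, n = 3), a log2 fold change of 0.91 (SE 0.16), and the chain synthase *Chsy1* was higher by 0.65 (SE 0.08). *Dse*, an epimerase that makes dermatan sulfate, was lower, at -0.17 (SE 0.05), while the related *Dsel* had no call (-0.10, SE 0.05). Of 8 genes for the supply of sugar nucleotides and sulfate, 5 were higher, beside 20.5% of all genes tested, with *Papss2*, a synthase of the sulfate donor, first at 0.76 (SE 0.05, edgeR adjusted p = 3.3e-05). The other 3 did not pass.

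Of 8 tested genes of keratan sulfate, the chain of *Lum*, *Fmod* and *Omd*, 2 were higher and 1 lower, beside 20.5% and 20.1% of all genes tested. *Chst2* was higher by 0.86 (SE 0.09) and the sialyltransferase *St3gal1* lower, at -0.44 (SE 0.10). *Chst5* had 1, 0 and 0 counts with vehicle and 12, 17 and 23 counts with TGFβ, a ratio of rates of 56.7 with an exact 95% interval for counting error of 9.73 to 2281. *Tpst1* and *Tpst2*, which sulfate tyrosines such as those of *Fmod* and *Omd*, moved apart, at -0.25 and 0.14 on the log2 scale, and the number of the pair that passed ranged from 0 to 2 over the alternatives.

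Among 11 tested proteases known to cut these proteins, 7 were lower and 1 higher, beside 20.1% and 20.5% of all genes tested, with a median log2 fold change of -0.81. *Adamts5*, an aggrecanase, went from 1246 ± 110.1 to 574 ± 104.5 CPM (SD, n = 3), a log2 fold change of -1.12 (SE 0.13, edgeR adjusted p = 0.000472). *Mmp3* (-1.36), *Mmp12* (-1.12), *Mmp8*, *Mmp9* (-0.98), *Mmp13* (-0.81) and *Mmp2* (-0.33) were lower, and *Tll1*, a relative of *Bmp1*, was higher at 2.62 (SE 0.57). *Mmp13* (2.01 and 1.14 CPM) and *Mmp9* (5.40 and 2.72 CPM) were scarce, and the groups of *Mmp9* overlapped. *Mmp3* (870 and 338 CPM) and *Mmp2* (527 and 418 CPM) were abundant. So was *Mmp14*, which had 806 and 870 CPM and no call (0.11, SE 0.06). The *Tll1* level was 3.43, 1.58 and 4.26 CPM with vehicle and varied widely with TGFβ, at 34.8, 8.24 and 14.3 CPM. *Bmp1* itself, which trims the propeptides of decorin, biglycan and osteoglycin, had 449 ± 43.6 and 481 ± 47.8 CPM and no call. This count was 5 instead of 8 without the vehicle library of 29331999 counts, the TGFβ library of 27851677 counts or the TGFβ library of 28894151 counts.

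Of the 12 receptors known to bind these proteins, 7 were lower, beside 20.1% of all genes tested, and the other 5 had no call, with a median log2 fold change of -0.39. The lower ones were *Met* (-1.37), *Tlr2* (-0.91), *Cd14* (-0.75), *Egfr* (-0.74), *Tlr4* (-0.65), *P2rx4* and *P2rx7*. *Lrp1*, without a call (0.13, SE 0.10), made up most of the summed level of the list, at 2834 and 3102 CPM. That sum was 3439 to 3589 CPM with vehicle and 3172 to 3957 CPM with TGFβ, so it overlapped between the groups. *Tlr2* and *Tlr4*, the receptors of soluble biglycan, stood at 37.3 ± 4.04 and 57.2 ± 2.83 CPM in vehicle cells, and under TGFβ at 19.9 ± 3.42 and 36.4 ± 2.33 CPM (SD, n = 3). *Cd14* is also a leukocyte marker, and the share of leukocytes in these values was not tested.

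Of the 11 fibrillar collagen genes, the binding partners of the family, 4 were higher and 2 lower, beside 20.5% and 20.1% of all genes tested, with a median of 0.23. *Col11a1* went from 419.6 ± 95.4 to 1176 ± 171 CPM (SD, n = 3), a log2 fold change of 1.49 (SE 0.18, edgeR adjusted p = 0.000482), and *Col2a1* was higher at 2.27, *Col5a2* at 0.40 and *Col5a1* at 0.29. *Col3a1* was lower at -0.94 (SE 0.13) and *Col5a3* at -1.06. *Col1a1* (0.23, SE 0.08, edgeR adjusted p = 0.0550) and *Col1a2* (0.13, SE 0.07) had no call. The groups of *Col1a1* did not overlap, with means of 19992 CPM with vehicle and 23484 CPM with TGFβ. Over the alternatives, 6 to 7 of the collagen genes passed.

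**Figure D5:**
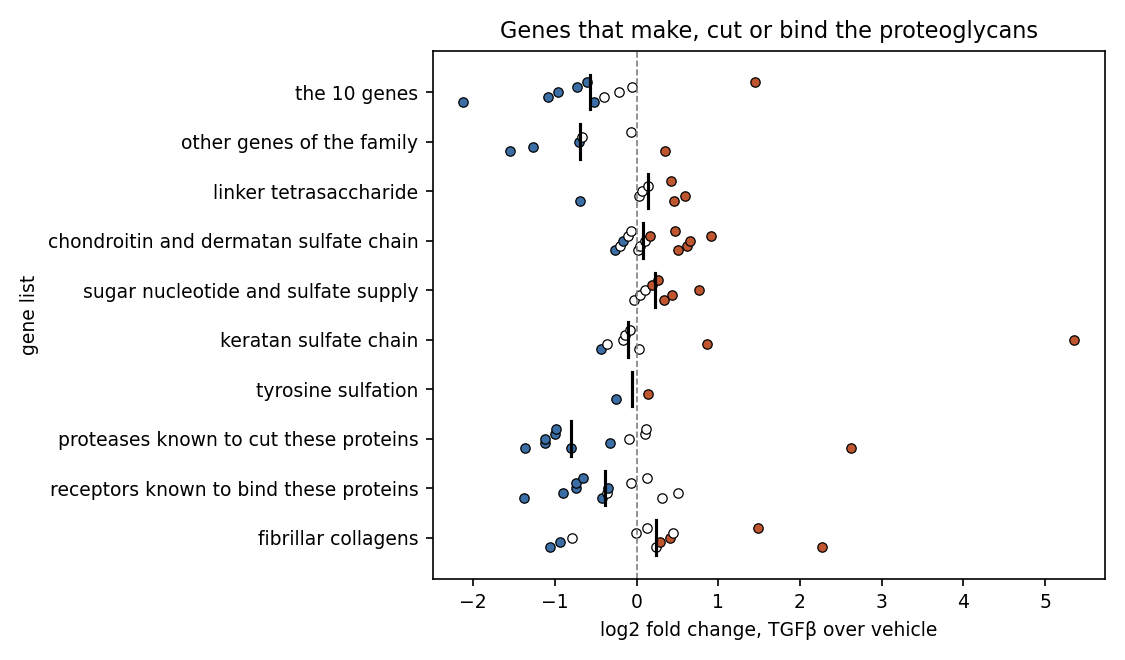
Log2 ratio of TGFβ to vehicle (x axis) of every tested gene in each list (y axis), with filled points for genes called lower (blue) or higher (orange), open points for the others and a line at the median of the list. The 10 proteoglycan genes range from -2.12 to 1.45, and the far right point in the keratan sulfate list is *Chst5*, which rests on 1 vehicle count.

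Markers of tissues in which *Aspn* is abundant were higher in part in the same libraries. Of 6 tested cartilage markers, 4 were higher, beside 20.5% of all genes tested. They were *Acan* at 2.35 (SE 0.15), *Col2a1* at 2.27, *Matn3* at 1.39 and *Sox9* at 0.49. *Comp* (0.20) and *Col9a1* (-0.45) had no call, and *Hapln1* and *Cnmd* were not tested. The summed level of the cartilage markers was 99.7 to 138 CPM in vehicle libraries and 194 to 233 CPM under TGFβ. *Sox9* made up most of it, with means of 95.4 and 134.3 CPM, while *Matn3* was scarce, at 0.752 and 1.99 CPM. Of 5 tested tendon markers, 3 were higher and 1 lower, beside 20.5% and 20.1% of all genes tested. *Thbs4* (2.63), *Scx* (2.04) and *Mkx* (1.31) were higher, *Egr1* (-0.98) was lower and *Tnmd* (0.51) had no call. The higher ones were at low levels, with means of 0.791 and 4.92 CPM (*Thbs4*), 2.14 and 8.89 CPM (*Scx*) and 1.23 and 3.04 CPM (*Mkx*). The tendon sums of 314 to 380 CPM with vehicle and 162 to 217 CPM with TGFβ are dominated by *Egr1*. The part of these genes in the level of *Aspn* was not tested.

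The genes whose profiles over the 6 libraries were closest were sought among 10373 genes of at least 5 CPM, by the distance between profiles of log2 CPM centred on each gene's mean. For *Prelp* they were *Fbn2*, *Adm* and *S1pr3*, at distances of 0.233, 0.25 and 0.323. For *Aspn* they were *Postn*, *Ptprb* and *Col11a1*, at 0.21, 0.269 and 0.298. *Postn*, which encodes periostin of activated fibroblasts, had a log2 fold change of 1.55 (SE 0.12), near the 1.45 of *Aspn*. For *Bgn* the closest were *Ormdl3*, *Tmem123* and *Lsm14b*, at 0.0367, 0.0467 and 0.0479, each with an estimate near 0. Such likeness over 6 libraries of 2 groups says only that the levels run in parallel here.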

How the data were processed

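RNA of 3 vehicle and 3 TGFβ cultures was made into stranded poly(A) libraries, and the authors deposited whole-number counts of reads per gene without normalization, aligned to mm10 and compared with DESeq2 per the submitters' processing notes. The counting tool and annotation are not given in the sources used here. The table's further columns hold the authors' mean, log2 fold change, its error, statistic, p-value and adjusted p, and were not used. Column names give the group of each library but no replicate number.

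With edgeR 4.0.16 (R 4.3.3), TMM scaling and the filterByExpr filter preceded the quasi-likelihood test over 14334 genes, with Benjamini-Hochberg adjusted p under 0.05 as the threshold. Standard errors are the fold change over the square root of F. Levels per kb used the exon union of GENCODE M21. The fit was also run on simulated counts with few changed genes and the same dispersion for all genes. These data differ from that setting, so nothing is read from that run. Libraries of 27851677 to 31072338 counts leave little counting error except in genes with few counts.

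The members and all lists were chosen with earlier results of these data known. All 10 members are named. Of other lists any gene past the threshold could be named, with at least the 2 largest changes in each direction. Some genes without a call are named beside them. Genes nearest in position and the 3 closest profiles were taken by fixed rules. Alternatives were DESeq2 1.42.0, limma-voom (limma 3.58.1), DESeq2 size factors, upper quartile scaling, no filter, a filter of 1 CPM in 3 libraries, a stricter adjusted p (0.01), a least log2 fold change (1), other gene lengths and each library left out. The 3 alternatives chosen after seeing the data were the longest protein-coding transcript as the length, the sum without *Bgn*, and the neighbouring genes under all alternatives.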

Additional observations from a re-analysis of the deposited data

How the results depend on the processing

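Of 120 values of the 10 genes under other scalings, tools, filters and left-out libraries, 118 kept their direction and their side of the threshold. The exceptions were *Ogn* on leaving out the vehicle library of 29296570 counts (-0.46) or the TGFβ library of 27851677 counts (-0.63), within a leave-one-out range of -0.77 to -0.46. The cause was not tested. These 120 values leave out the stricter adjusted p of 0.01, which *Ogn* (edgeR adjusted p = 0.0240) does not reach. They also leave out the least log2 fold change of 1, which of the 10 genes only *Prelp*, *Aspn* and *Podn* exceed in size. The number of genes that passed over the whole table was 5828, and it was 3595 at an adjusted p of 0.01, 971 with a log2 fold change beyond 1, and 4489 to 5481 with a library left out. The log2 difference of the summed level per kb was -0.39, and it was -0.24 and -0.26 with the lengths of the longest and the protein-coding transcript and -0.95 without *Bgn*. Upper quartile scaling lowered the share of called genes that were higher from 50.5% to 46.6%. Of the further family genes 1 passed with the filter of 1 CPM, of the tyrosine sulfation pair 0 or 1 under 8 alternatives, and of the proteases 5 under 3 left-out libraries. No paired analysis was possible because the deposited columns carry no replicate number. The sample labels number the replicates 1 to 3 in each group. In the library order used above, the log2 deviations of *Dcn* from its group mean were -0.16, -0.02 and 0.17 with vehicle. With TGFβ they were -0.15, -0.02 and 0.16. For *Prelp* and *Omd* the place of the highest library differed between the groups. Whether the libraries form pairs was not tested, and the standard errors and overlaps above treat them as unpaired. Groups of 3 libraries limit all values, and few counts those of *Omd* and the rare family genes.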
